A study of Caenorhabditis briggsae with 6 samples.

Results

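Innate immunity effector genes encode the secreted peptides, enzymes and lectins with which nematodes meet bacteria, fungi and other microbes. In L3 larvae of C. briggsae, 50 such genes were read in all 6 libraries of an RNA-seq experiment, out of 23169 genes in its count table. A gene was included where its symbol begins with Cbr-clec-, Cbr-lys-, Cbr-ilys-, Cbr-cnc-, Cbr-fip-, Cbr-fipr-, Cbr-thn-, Cbr-spp-, Cbr-abf- or Cbr-pals- in the study's lists of genes that changed in Cbr-spr-4, Cbr-htz-1 or Cbr-ivph-3 mutants. The peptide gene Cbr-nlp-34.1 was added by name. No ilys gene was listed. Every one of these genes is therefore present because at least 1 of 3 mutants changed its transcript, so they do not represent their families as a whole.

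The larvae were whole hermaphrodites of strain PS9217, which carries Cbr-ivph-3(sy5216), and of the wild-type strain AF16. Both were synchronized by bleaching, fed E. coli OP50 at 20 °C, and collected at the L3 stage when a few animals showed the first division of the vulval precursor cells. There were 3 independent biological replicates of each genotype. The sy5216 allele puts a premature stop codon in Cbr-ivph-3, a gene restricted to Caenorhabditis that encodes a LIN-15B-domain protein, and it is represented by a single mutant strain. No infection was part of the design, and OP50 is the ordinary laboratory food.

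In C. elegans, infection or wounding of the epidermis switches on clusters of short antimicrobial peptides of the nlp and cnc families, under p38 MAPK and TGF-beta signals. The intestine responds to ingested microbes with lysozymes, which cut bacterial cell walls, with saposin-like proteins, which permeabilize membranes, and with C-type lectins, which are secreted or membrane-bound proteins carrying a sugar-binding type of fold. Functions below are known from C. elegans and are assigned to the C. briggsae genes through their names.

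How a gene came to be listed decides what can be tested. Of the 50 genes, 30 are listed for Cbr-spr-4 or Cbr-htz-1, mutants that were not sequenced here, and 20 are listed only because Cbr-ivph-3 changed them. The first set can be tested in these libraries (19 of the 30 are listed for Cbr-ivph-3 as well). The second set was chosen by the very difference that is measured, so its values are descriptions without a test. Whether the earlier Cbr-spr-4 and Cbr-htz-1 comparisons used these same AF16 libraries is not given in the sources used here. If they did, the choice of the first set would not be independent of the difference tested here.

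The libraries held 22817581 to 30865944 counts in the mutant and 24625819 to 25760385 in wild type. Levels are given as CPM, in which each count is divided by the TMM-scaled size of its library and brought to a common scale, and fold changes as log2 of mutant over wild type. Mutant replicates 2 and 3 were nearly alike. Their counts for 13441 genes differed with a mean chi-square per gene of 2.76, where counting noise alone gives 1, against 8.57 to 37.4 for pairs of wild-type libraries. Mutant replicate 1 stood apart from them, with means of 243 and 280. Because the labels describe independent replicates, replicates 2 and 3 were kept apart. A mean above counting noise cannot show whether they came from separate cultures. Results that differ when replicates 2 and 3 are summed into 1 library are therefore given with both values. Cbr-ivph-3 itself had 21.0, 20.9 and 20.9 CPM in mutant replicates 1, 2 and 3, against 36.5, 34.5 and 33.0 CPM in wild-type replicates 1, 2 and 3. A stop codon need not remove a transcript, so this level is only a weak check of the labels.

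More of the testable effector genes were higher than lower in mutant larvae. Of the 30 listed for the other mutants, 26 had enough counts for the test, and 14 of them (53.8%) were higher and 3 (11.5%) lower at an adjusted p under 0.05 (edgeR's quasi-likelihood test). Over all 14241 tested genes the corresponding shares were 11.7% higher and 9.80% lower. Among the 1340 other tested genes of the same Cbr-spr-4 and Cbr-htz-1 lists they were 18.3% and 14.9%. Those lists hold genes of either direction, whereas 22 of the 26 effector genes were listed as up for Cbr-spr-4. Of the 22, 13 (59.1%) were higher and 3 (13.6%) lower here, beside 26.6% and 4.55% of the 704 other tested genes listed as up for Cbr-spr-4. The median log2 fold change of the 26 genes was 0.72, beside 0.06 over all tested genes and 0.10 over the other listed genes. The remaining 9 genes did not pass. Because fip-1 cleared the filter on low counts only through its mutant libraries, it had to differ and supports nothing. It is 1 of the 14 and also 1 of the 13 listed as up for Cbr-spr-4. The shares of 53.8% and 59.1% and the median of 0.72 include it. With at least 10 counts required in every library 13 genes were higher and 3 lower, beside 11.4% higher and 9.55% lower of the 13199 genes then tested. The other 13 genes that rose were nlp-34.1, cnc-2, cnc-3, cnc-4, pals-38 and 8 clec genes, and those that fell were thn-1, clec-83 and spp-23.

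The count of higher genes depended on single libraries. It was 20 without mutant replicate 1, 9 without mutant replicate 2 or without mutant replicate 3, and 7, 8 and 7 without AF16 replicate 1, 2 and 3. The count of lower genes was 3 without mutant replicate 1 and 1 without any other library. With mutant replicates 2 and 3 summed, 9 genes were higher and 1 was lower. Over all genes the shares with that sum were 6.45% higher and 4.75% lower. Without mutant replicates 1, 2 and 3 in turn, 31.1%, 6.49% and 6.51% of all tested genes were higher and 28.6%, 4.87% and 4.76% lower, the first of these fits having only the alike pair as mutant libraries. Without AF16 replicates 1, 2 and 3 in turn, 4.13%, 4.93% and 4.47% were higher and 4.33%, 4.88% and 4.27% lower. Under every one of the 15 alternatives, 7 genes kept their higher call (nlp-34.1, cnc-2, cnc-4, pals-38, clec-12, clec-62 and clec-186) and thn-1 kept its lower call. The 20 genes listed only for Cbr-ivph-3 are described beside them: 13 had every mutant library above every wild-type library, 6 had every mutant library below, and 1 overlapped. Of all tested genes, 22.2% lay wholly above and 20.1% wholly below, but nothing can be read from the comparison, since the listing used this contrast.

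**Figure D1:**
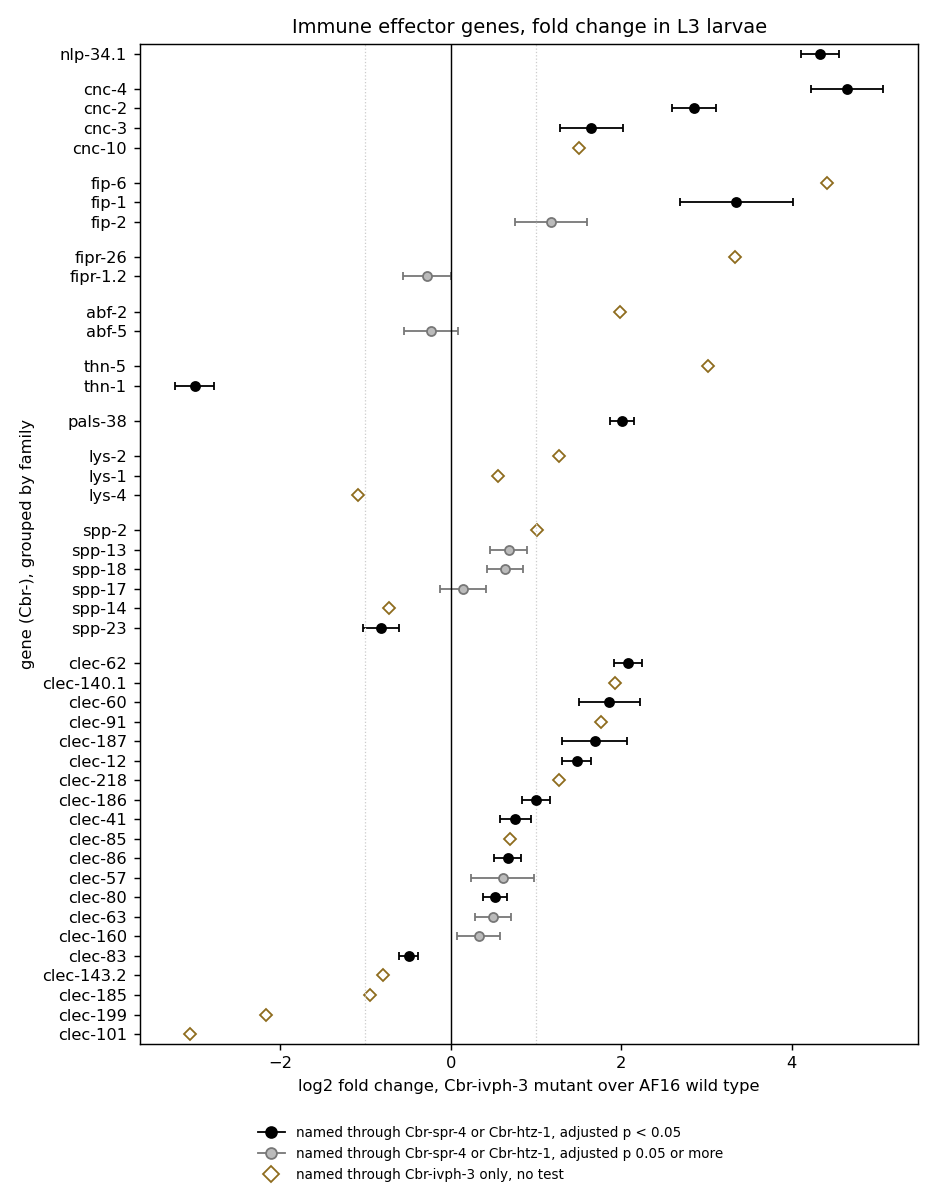
Log2 fold change, Cbr-ivph-3 mutant over AF16 wild type, for 44 effector genes, grouped by family and sorted within each family. Filled circles with bars (estimate and standard error) are the 26 genes listed for other mutants, black where the adjusted p was under 0.05, and open diamonds are genes listed only for Cbr-ivph-3, with no test. Cbr-cnc-11, with no wild-type count, and the 5 untested genes are not drawn. Cbr-fip-1 is drawn black but described without a test. Tested genes run from -3.0 (Cbr-thn-1) to 4.65 (Cbr-cnc-4), and the peptide, saposin-like and lectin genes listed for other mutants each lie on both sides of 0.

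Among the tested antimicrobial peptide genes, nlp-34.1, cnc-2, cnc-3 and cnc-4 were higher, fip-2, fipr-1.2 and abf-5 did not pass, and fip-1 is described without a test. Cbr-nlp-34.1 (WBGene00024536) belongs to the family of C. elegans nlp-29 and nlp-34, glycine-rich peptides that the epidermis secretes after fungal infection. It had 39.3, 54.2 and 60.4 CPM in mutant replicates 1, 2 and 3, against 2.80, 2.28 and 2.58 CPM in wild-type replicates 1, 2 and 3. The lowest mutant library was far above the highest wild-type one, giving a log2 fold change of 4.33 ± 0.22 (adjusted p = 0.000261, where ± on a log2 fold change is here and below its standard error). This rise held under all 15 alternatives, with log2 fold changes of 4.19 to 4.65.

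The cnc genes encode caenacins, peptides related to the nlp group, of which C. elegans cnc-2 is a target of the TGF-beta ligand DBL-1 in the epidermis. All 6 listed cnc genes had every mutant library above every wild-type library, beside 22.2% of all tested genes. Of the 6, 3 were listed for Cbr-ivph-3 only, so nothing can be read from their separation. Cbr-cnc-4 (WBGene00045470) had 77.7, 44.9 and 46.2 CPM in mutant replicates 1, 2 and 3, against 2.40, 1.16 and 3.15 CPM in wild-type replicates 1, 2 and 3. It rose by 4.65 ± 0.42 on the log2 scale (adjusted p = 0.00115), the highest estimate among the 26 tested genes, and mutant replicate 1 carried the highest level. Cbr-cnc-2 (WBGene00028822) had 13.9, 22.1 and 25.6 CPM in the mutant, against 2.58, 2.99 and 2.98 CPM in wild type, and its log2 fold change was 2.85 ± 0.26 (adjusted p = 0.0012). For this gene mutant replicate 1 was the lowest of the mutant libraries and still above all of wild type.

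Cbr-cnc-3 (WBGene00028821) rose less, with 9.66, 23.3 and 26.3 CPM in the mutant, against 5.25, 6.60 and 6.96 CPM in wild type (log2 fold change 1.65 ± 0.37, adjusted p = 0.0238 from edgeR). Mutant replicate 1 lay close to wild type. Leaving out a library, unless it was mutant replicate 1, ended the call, with adjusted p of 0.0647 without mutant replicate 2, 0.064 without mutant replicate 3, and 0.105, 0.0962 and 0.0854 without AF16 replicates 1, 2 and 3. Summing mutant replicates 2 and 3 also ended it (0.0636). Across its 15 alternatives adjusted p ran from 7.63e-06 to 0.105.

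Among the cnc genes listed for Cbr-ivph-3 only, Cbr-cnc-10 had 23.6, 29.3 and 31.1 CPM in the mutant, against 8.32, 9.82 and 11.6 CPM in wild type, a log2 fold change of 1.5. Cbr-cnc-11 was found in the mutant alone, with 23, 9 and 22 counts in mutant replicates 1, 2 and 3 and no count in any wild-type library. Against a floor of 3 counts over the wild-type group its level was at least 13.3-fold higher. Cbr-cnc-6 had 4, 36 and 44 counts in the mutant and 0, 1 and 0 in wild type. The ratio of its scaled totals was 62.3, with an exact 95% counting interval of 10.9 to 2488 that covers counting error only. Summed over the 6 genes, cnc transcripts took 126, 121 and 131 CPM in the mutant, against 18.5, 20.6 and 24.7 CPM in wild type. The sums of the mutant libraries were alike even where single genes differed between replicates. They include the genes listed for Cbr-ivph-3 only, so the gap between the genotypes is partly set by the listing.

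The fip and fipr genes (fungus-induced proteins and their relatives) also encode short secreted peptides. Cbr-fip-1 had 12, 26 and 51 counts in the mutant and 1, 2 and 3 counts in wild type, or 0.415, 0.971 and 1.43 CPM against 0.0445, 0.0893 and 0.131 CPM. Since it passed the filter on low counts through its mutant libraries alone, the fitted log2 fold change of 3.35 ± 0.66 is a description and not a test. Few counts stand behind the wild-type level, and the ratio of scaled totals was 11 with an exact 95% counting interval of 4.86 to 30.8. Cbr-fip-2 had 26.8, 80.9 and 84.1 CPM in the mutant, against 22.9, 33.6 and 27.9 CPM in wild type. Mutant replicate 1 lay within the wild-type range, and the log2 fold change of 1.18 ± 0.42 did not pass (adjusted p = 0.0942 from edgeR, and 3.81e-05 without that library).

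Cbr-fip-6, listed only for Cbr-ivph-3, had the highest log2 fold change of the 3 fip genes. It had 17.6, 11.7 and 13.5 CPM in mutant replicates 1, 2 and 3, against 0.667, 0.669 and 0.657 CPM in wild-type replicates 1, 2 and 3, a log2 fold change of 4.41. Each wild-type library held 15 counts of it. Cbr-fipr-26 had 2.32, 0.56 and 0.392 CPM in the mutant, against 0.178, 0.0893 and 0.0438 CPM in wild type, and most of its mutant counts (67 against 15 and 14) came from replicate 1. Its log2 fold change was 3.33, and 2.12 without that library. Cbr-fipr-1.2 showed no such difference, with 8.65, 16.2 and 16 CPM in the mutant, against 14.9, 14.1 and 20.7 CPM in wild type, and overlapping genotypes (-0.28 ± 0.28, adjusted p = 0.516 from edgeR).

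The abf genes encode antibacterial factors that resemble defensins. Cbr-abf-5 had 7.10, 15.7 and 16.1 CPM in the mutant, against 12.5, 17.0 and 16.2 CPM in wild type, with a log2 fold change of -0.23 ± 0.32 that did not pass (adjusted p = 0.646 from edgeR). Only mutant replicate 1 was outside the wild-type range. Cbr-abf-2, listed for Cbr-ivph-3 only, had 2.04, 3.58 and 4.37 CPM in the mutant, against 0.978, 1.07 and 0.482 CPM in wild type (log2 fold change 1.98). All 3 mutant libraries were above the wild-type ones.

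**Figure D2:**
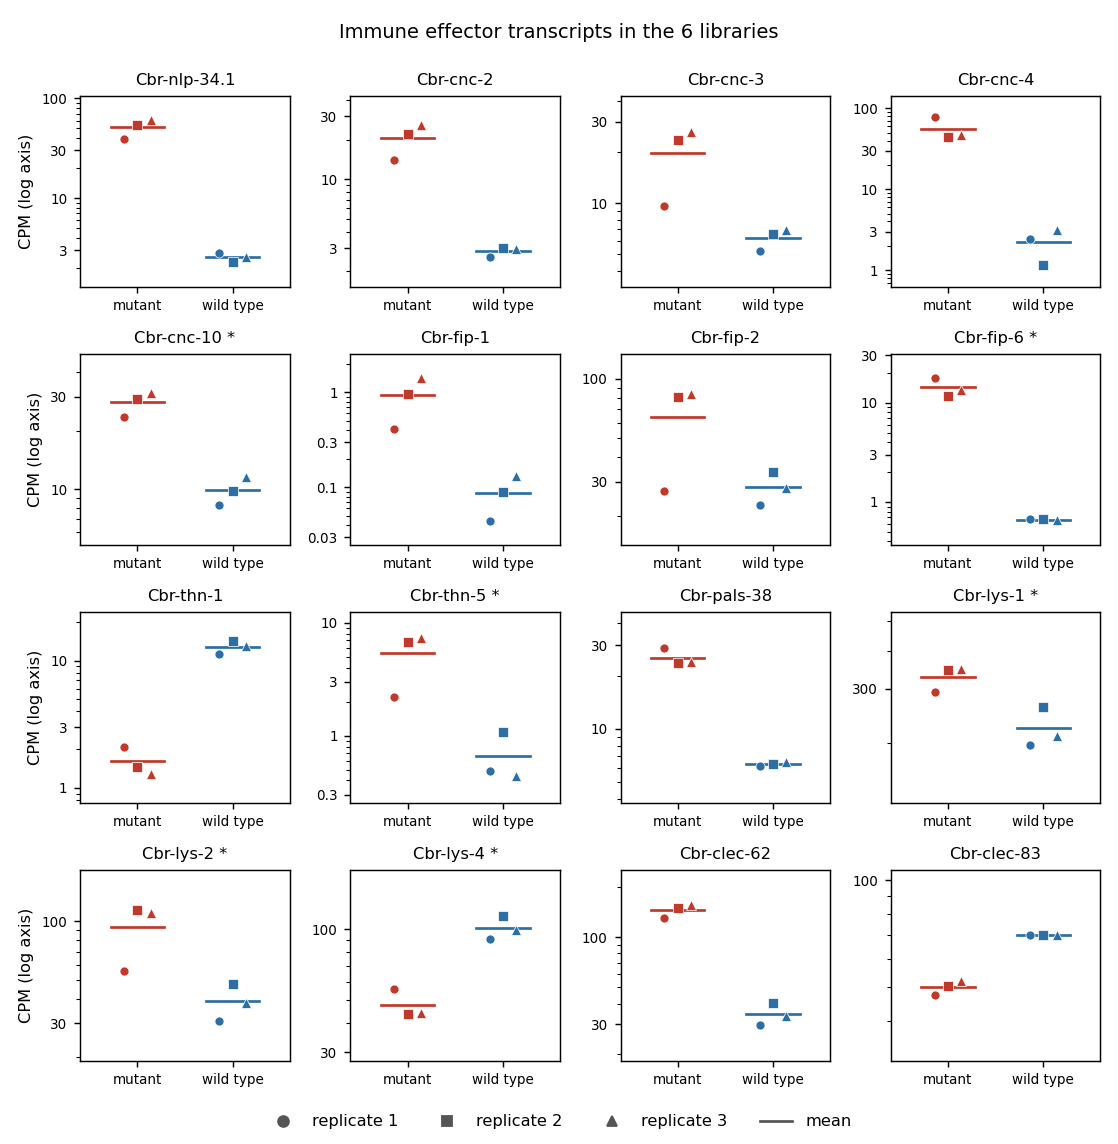
CPM of 16 effector genes in each library, on log axes, with the Cbr-ivph-3 mutant in red on the left and AF16 wild type in blue on the right of each panel. Symbols are replicate numbers, bars are means of the 3 libraries, and an asterisk marks a gene listed only for Cbr-ivph-3. Cbr-nlp-34.1, Cbr-cnc-4 and Cbr-pals-38 separate widely, Cbr-thn-1 does so in the other direction, and mutant replicate 1 (circles) often sits away from replicates 2 and 3, as for Cbr-cnc-3 and Cbr-fip-2.

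The pair of thaumatin-like genes differed in direction. Thaumatin-like proteins are known in plants as defence proteins against fungi, and thn genes are part of the response to bacteria in C. elegans. Cbr-thn-1 had 2.08, 1.46 and 1.29 CPM in mutant replicates 1, 2 and 3, against 11.3, 14.3 and 13 CPM in wild-type replicates 1, 2 and 3. It fell by 3.0 ± 0.23 in log2 units (adjusted p = 0.000752 from edgeR), the lowest estimate among the 26 tested genes, and it stayed lower under all 15 alternatives. Cbr-thn-5, listed for Cbr-ivph-3 only, had 2.18, 6.79 and 7.28 CPM in the mutant, against 0.489, 1.07 and 0.438 CPM in wild type, a log2 fold change of 3.02. Its genotypes did not overlap, and mutant replicate 1 was the nearest to wild type.

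The pals genes form a large nematode family, many members of which are switched on in C. elegans by viruses and microsporidia within cells. Cbr-pals-38 had 28.7, 23.6 and 24.1 CPM in the mutant, against 6.14, 6.34 and 6.48 CPM in wild type. The replicates of each genotype lay close together, and the gene rose by 2.01 ± 0.14 on the log2 scale (adjusted p = 0.000428 from edgeR), under all 15 alternatives. Cbr-pals-34 was hardly detected, with 2, 5 and 8 counts in the mutant and 7, 4 and 4 in wild type, too few for the test. The ratio of its scaled totals was 0.741, with an exact 95% counting interval of 0.338 to 1.63.

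The 3 lysozyme genes were all listed for Cbr-ivph-3 only, and 2 of them were higher and 1 lower in every mutant library. Over all tested genes 22.2% lay wholly above and 20.1% wholly below. Nothing can be read from the comparison, since the listing used this contrast. Cbr-lys-2 had 55.7, 115 and 111 CPM in the mutant, against 30.8, 47.8 and 38 CPM in wild type (log2 fold change 1.27). Cbr-lys-1 had 292, 346 and 347 CPM in the mutant, against 197, 262 and 210 CPM in wild type (0.56). Cbr-lys-4 had 55.8, 43.5 and 44.0 CPM in the mutant, against 91.3, 114 and 99.2 CPM in wild type (-1.09). RefSeq names the last locus (CBG06112) Cbr-lys-10, so its identity within the family is uncertain.

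The saposin-like genes showed small differences in both directions. Of 4 testable spp genes none rose and 1 fell, which with 4 genes is near the shares over all tested genes (11.7% and 9.80%). Cbr-spp-23 had 21.0, 28.4 and 27.3 CPM in the mutant, against 38, 58.1 and 39.5 CPM in wild type, and fell by 0.82 ± 0.21 in log2 units (adjusted p = 0.0376 from edgeR). Leaving out a library, unless it was mutant replicate 1, ended the call, with adjusted p of 0.072 and 0.083 without mutant replicates 2 and 3 and of 0.0651, 0.0779 and 0.0738 without AF16 replicates 1, 2 and 3, as did summing mutant replicates 2 and 3 (0.078), upper-quartile scaling (0.0793) and library totals (0.152). Over its alternatives adjusted p ran from 0.00373 to 0.152. Cbr-spp-17, separated from Cbr-spp-23 by a single gene on chromosome I in RefSeq, had 243, 463 and 469 CPM in the mutant, against 320, 427 and 319 CPM in wild type. Its genotypes overlapped (0.14 ± 0.27, adjusted p = 0.754 from edgeR). Cbr-spp-13 and Cbr-spp-18, with log2 fold changes of 0.68 and 0.64, had every mutant library above every wild-type library but did not pass (adjusted p = 0.0712 and 0.0719 from edgeR). Under library totals both passed as higher (0.00987 and 0.0229), as did spp-13 under upper-quartile scaling (0.039) and spp-18 with DESeq2 (0.0483) and with a replicate block (0.035). Without mutant replicate 1, spp-13, spp-17 and spp-18 passed as higher (0.41, 0.38 and 0.78, with adjusted p of 0.0114, 0.033 and 0.00181). Cbr-spp-2, listed for Cbr-ivph-3 only, had 40.7, 101 and 102 CPM in the mutant, against 32.9, 46.2 and 41.5 CPM in wild type (1.01), and mutant replicate 1 lay within the wild-type range. Cbr-spp-14, also so listed, had 370, 314 and 334 CPM in the mutant, against 513, 643 and 519 CPM in wild type (-0.72).

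The C-type lectin genes were the largest family, with 23 members, and of 12 that could be tested 8 rose, 1 fell and 3 did not pass, beside 11.7% higher and 9.80% lower over all tested genes. All of the 12 but Cbr-clec-57 and Cbr-clec-186 were listed as up for Cbr-spr-4. Of the other tested genes so listed, outside the effector genes, 26.6% were higher and 4.55% lower. Cbr-clec-62 (WBGene00026986) rose most. It had 130, 150 and 156 CPM in the mutant, against 29.6, 40.2 and 33.6 CPM in wild type (2.08 ± 0.16, adjusted p = 0.000735). The genotypes were widely separated. Cbr-clec-60, whose C. elegans namesake is induced in the intestine by Staphylococcus aureus, had 6.30, 14.7 and 14.0 CPM in the mutant, against 2.54, 3.75 and 3.33 CPM in wild type (1.86 ± 0.36, adjusted p = 0.014). This call was lost without AF16 replicate 1, 2 or 3 (0.0707, 0.0562 and 0.0657). Cbr-clec-12 had 59.4, 81.6 and 81.7 CPM in the mutant, against 27.4, 28.1 and 24.4 CPM in wild type (1.48 ± 0.17, adjusted p = 0.00228). Cbr-clec-186 had 126, 167 and 166 CPM in the mutant, against 70.3, 83.6 and 75.5 CPM in wild type (1.0 ± 0.16, adjusted p = 0.00652). These and the following p-values for lectins come from edgeR, adjusted over all tested genes.

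The other 4 lectin genes that rose did not hold their calls when single libraries were left out. Cbr-clec-187 had 57.1, 161 and 158 CPM in the mutant, against 36.3, 39.3 and 41.2 CPM in wild type (1.69 ± 0.38, adjusted p = 0.0238). Cbr-clec-41 had 293, 425 and 421 CPM in the mutant, against 207, 246 and 221 CPM in wild type (0.76 ± 0.18, adjusted p = 0.0268). Mutant replicate 1 was the lowest of the mutant libraries for both genes. Cbr-clec-86 had 23.4, 28.9 and 29.3 CPM in the mutant, against 16, 20.2 and 15.2 CPM in wild type (0.67 ± 0.16, adjusted p = 0.0306). Cbr-clec-80 had 24.4, 31.5 and 28.7 CPM in the mutant, against 21.7, 18.5 and 19.0 CPM in wild type (0.52 ± 0.14, adjusted p = 0.0446). The gap between the genotypes was narrow for clec-80 and clec-86. In the order clec-187, clec-41, clec-86 and clec-80, adjusted p was 0.0628, 0.0904, 0.101 and 0.159 without mutant replicate 2, and 0.0629, 0.0893, 0.101 and 0.129 without mutant replicate 3. It was 0.105, 0.126, 0.143 and 0.103 without AF16 replicate 1, and 0.0929, 0.12, 0.142 and 0.177 without AF16 replicate 3. Without AF16 replicate 2, clec-86 alone kept its call, and the others had 0.102, 0.0744 and 0.15. With mutant replicates 2 and 3 summed it was 0.0632, 0.0899, 0.0993 and 0.141. With no filter on low counts clec-86 and clec-80 also lost their calls (0.0547 and 0.0788), and clec-80 lost its call with a replicate block (0.0999).

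Cbr-clec-83 was the lectin gene that fell. It had 47.3, 50.4 and 51.9 CPM in mutant replicates 1, 2 and 3, against 69.8, 69.8 and 69.9 CPM in wild-type replicates 1, 2 and 3, and fell by 0.49 ± 0.11 in log2 units (adjusted p = 0.0226 from edgeR). The difference was small beside those above, but the libraries of each genotype were close together. The call was lost under library totals, where the log2 fold change was -0.17, under upper-quartile scaling (0.0716), with a replicate block (0.0625), with mutant replicates 2 and 3 summed (0.0876), and without mutant replicate 2 (0.0926), mutant replicate 3 (0.0789), AF16 replicate 1 (0.0767), AF16 replicate 2 (0.0596) or AF16 replicate 3 (0.0813).

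The 3 lectin genes that did not pass were Cbr-clec-57, Cbr-clec-63 and Cbr-clec-160. Cbr-clec-63 had 2741, 1735 and 1788 CPM in the mutant, against 1316, 1671 and 1444 CPM in wild type (0.50 ± 0.21, adjusted p = 0.145 from edgeR). Every mutant library was above every wild-type library, mutant replicate 1 was much the highest, and the gene passed under library totals (0.80, adjusted p = 0.0142). For Cbr-clec-57 and Cbr-clec-160 mutant replicate 1 was instead below every wild-type library, with 29.2 and 36.6 CPM against means of 40.8 and 46.6 CPM in wild type, while mutant replicates 2 and 3 were above. Their log2 fold changes were 0.61 and 0.33 (adjusted p = 0.288 and 0.396 from edgeR), and 0.94 and 0.57 without mutant replicate 1 (0.000189 and 0.000616). The untested lectin genes had few counts: Cbr-clec-140.2 had 11, 1 and 0 in the mutant and none in wild type, Cbr-clec-141 had 28, 3 and 6 in the mutant and 0, 1 and 3 in wild type, and Cbr-clec-147 had 2, 1 and 1 in the mutant and 5, 9 and 5 in wild type.

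The 8 lectin genes listed only for Cbr-ivph-3 were divided evenly. Over all tested genes 22.2% lay wholly above and 20.1% wholly below, but the listing of these 8 used this contrast. Cbr-clec-85, Cbr-clec-91, Cbr-clec-140.1 and Cbr-clec-218 had every mutant library above every wild-type library, with log2 fold changes of 0.70, 1.76, 1.93 and 1.27. Cbr-clec-101, Cbr-clec-143.2, Cbr-clec-185 and Cbr-clec-199 had every mutant library below (-3.06, -0.79, -0.94 and -2.17). Cbr-clec-199 had 1.21, 0.635 and 0.728 CPM in the mutant, against 4.14, 2.95 and 4.55 CPM in wild type. Cbr-clec-101 rested on 2, 6 and 4 counts in the mutant and 33, 19 and 25 in wild type. All 23 clec genes together took 3991, 3418 and 3479 CPM in the mutant, against 2103, 2586 and 2279 CPM in wild type. As the 8 genes listed only for Cbr-ivph-3 are included, the sums are descriptions without a test. Cbr-clec-63 alone made up the larger share of every one of these sums, and without it they were 1250, 1684 and 1691 CPM in the mutant, against 787, 915 and 835 CPM in wild type.

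The mutant libraries differed among themselves in the effector genes. Mutant replicate 1 was below replicates 2 and 3 for 21 of the 26 testable genes (80.8%), beside 49.6% of all tested genes, and above both for the other 5 (19.2%, beside 44.3%). The 5 were cnc-4, pals-38, thn-1, clec-63 and spp-13. The median log2 ratio of replicate 1 to the mean of replicates 2 and 3 was -0.51 over the 26 genes and -0.05 over all tested genes. Among the 19 tested genes listed only for Cbr-ivph-3, replicate 1 was below for 11 and above for 8.

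**Figure D3:**
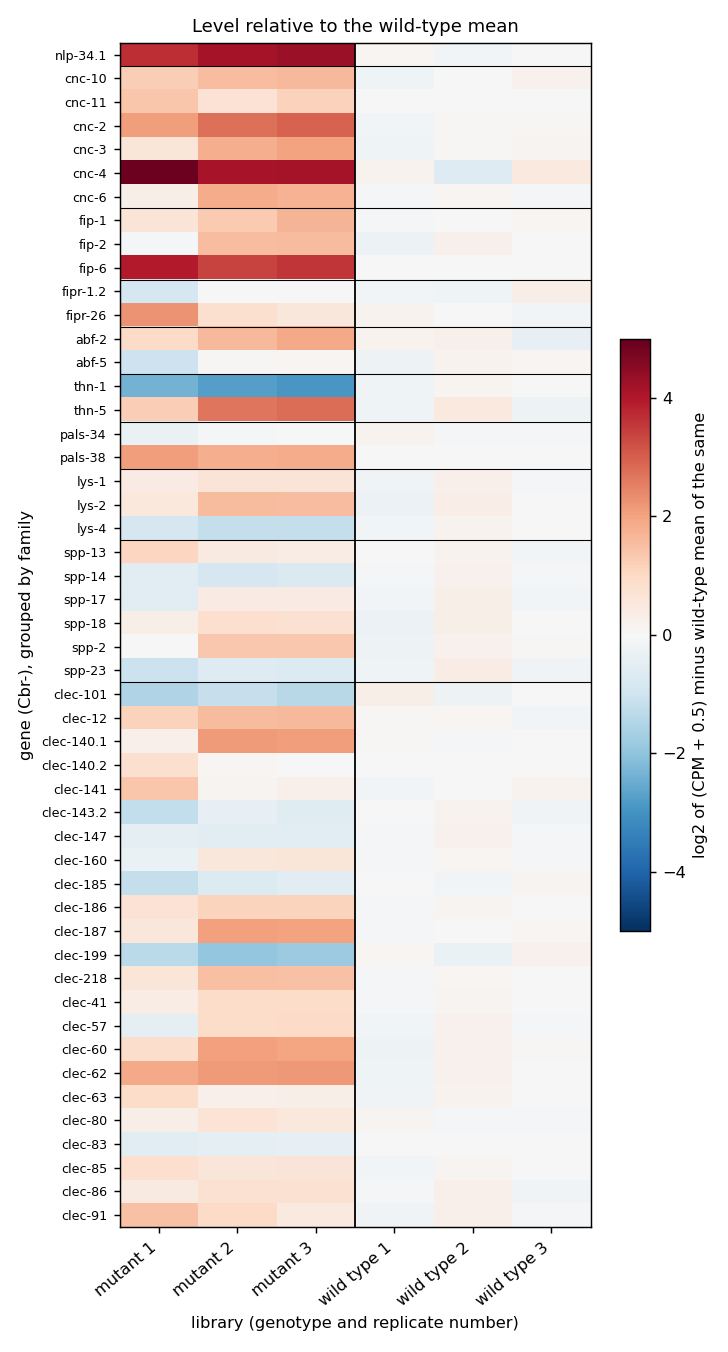
Level of each of the 50 effector genes in each library, as log2 of CPM plus 0.5 minus the wild-type mean of the same quantity, with red above and blue below wild type. Columns are the 3 Cbr-ivph-3 mutant libraries and then the 3 AF16 libraries, and rows are grouped by family. Mutant replicates 2 and 3 have nearly the same colours throughout, and mutant replicate 1 is paler for many lectin, lysozyme and saposin-like genes.

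Molting and tissue marker genes also differed between these libraries, and their part in the effector results was not tested. In whole animals, fewer cells of a type and less RNA per cell cannot be told apart. Of the molting list, 8 of 9 genes were found, and their summed level was 7401, 2900 and 3026 CPM in mutant replicates 1, 2 and 3, against 6963, 6894 and 6461 CPM in wild type. In mutant replicate 1 most of that sum came from the genes Cbr-dpy-13 and Cbr-dpy-5, with 3133 and 2308 CPM. The other 6 genes were below wild type in every mutant library, beside 20.1% of all tested genes. Of these 6, 3 were listed for Cbr-ivph-3 only. The intestine markers (6 of 9 found) summed to 1242 to 1700 CPM in the mutant and 2749 to 2836 CPM in wild type. The epidermis markers (5 of 9 found) summed to 1292 to 2521 CPM in the mutant and 2304 to 2994 CPM in wild type, and the germline markers (10 of 12 found) to 725 to 1335 CPM in the mutant and 498 to 514 CPM in wild type. Of these 10, 5 were above wild type in every mutant library, beside 22.2% of all tested genes. The 5 others, Cbr-glp-1, Cbr-htp-3, Cbr-mex-5, Cbr-pgl-1 and Cbr-syp-1, were above wild type in mutant replicate 1 and below it in mutant replicates 2 and 3. The pharynx markers (2 of 6 found) summed to 205 to 330 CPM in the mutant and 405 to 660 CPM in wild type. Cbr-myo-1 was below wild type in every mutant library but did not pass (log2 fold change -1.69 ± 0.55, adjusted p = 0.0742 from edgeR). Cbr-tni-4 overlapped (0.11 ± 0.38, adjusted p = 0.864 from edgeR). DESeq2 and limma-voom each called 1 of the 2 lower. The body muscle markers (2 of 4 found) summed to 1227 to 2905 CPM in the mutant and 3781 to 4178 CPM in wild type. The 1 coelomocyte marker found, of 2, had 9.42 to 11.7 CPM in the mutant and 8.14 to 9.81 CPM in wild type, and no neuron marker was found. No marker that was found was at 0, and every one was found through the same lists of genes changed in mutants. In C. elegans the nlp and cnc peptides are made in the epidermis and many lysozymes and lectins in the intestine. The intestine sums were lower in every mutant library, but 5 of the 6 intestine markers were listed for Cbr-ivph-3 only. Those 5 were chosen by the very difference that is measured, so nothing can be read from that sum. The remaining intestine marker, Cbr-cpr-6, overlapped (log2 fold change -0.05 ± 0.31, adjusted p = 0.926 from edgeR). The epidermis sums overlapped through mutant replicate 1 alone (2521 CPM, against 1292 and 1334 CPM in mutant replicates 2 and 3). Of the 5 epidermis markers, Cbr-dpy-7, Cbr-elt-1 and Cbr-elt-3 were below wild type in every mutant library (log2 fold changes -1.50, -0.99 and -0.99). These 3 were listed for Cbr-ivph-3 only, as were the 2 body muscle markers. The collagen genes Cbr-rol-6 and Cbr-sqt-3, listed for another mutant, overlapped (adjusted p = 0.993 and 0.325 from edgeR).

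Several members lie side by side in RefSeq's order of genes. Cbr-cnc-11, Cbr-cnc-4, Cbr-cnc-3 and Cbr-cnc-2 are 4 consecutive genes on chromosome V, next to Cbr-cnc-5.1 and Cbr-cnc-5.2, which were not analysed here. Together the 4 took 102, 90.6 and 98.7 CPM in the mutant, against 10.2, 10.8 and 13.1 CPM in wild type. This sum includes cnc-11, which was listed for Cbr-ivph-3 only. Within the run, cnc-4 and cnc-11 were highest in mutant replicate 1, while cnc-3 and cnc-2 were lowest there. On chromosome I, Cbr-fipr-26 and Cbr-fip-6 are neighbours, and both were highest in mutant replicate 1. The neighbours Cbr-clec-63 and Cbr-clec-62 on chromosome II both had every mutant library above every wild-type library, with log2 fold changes of 0.50 and 2.08, and the difference between them was not tested. The neighbours Cbr-clec-186 and Cbr-clec-187 on chromosome IV both rose. Cbr-lys-2 and Cbr-lys-1 are neighbours on chromosome V and were both higher in every mutant library. Neighbours with like sequences may share reads, so the split of counts within a pair or run is less certain than its sum.

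**Figure D4:**
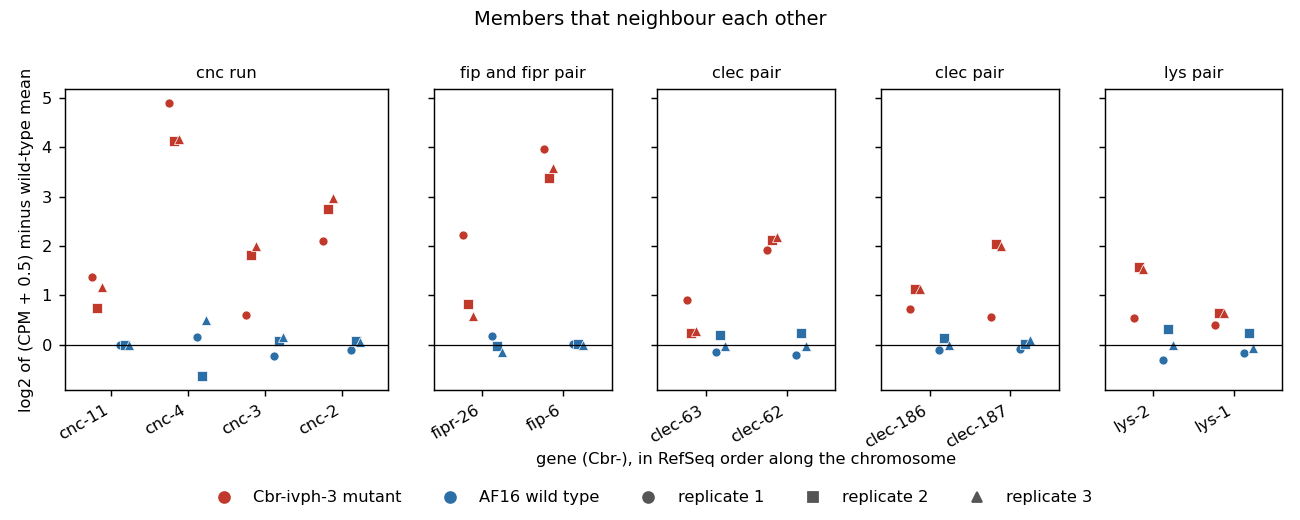
Levels of effector genes that are next to each other in RefSeq order, as log2 of CPM plus 0.5 minus the wild-type mean, with the Cbr-ivph-3 mutant in red to the left of AF16 wild type in blue for each gene. Symbols are replicate numbers. In the cnc run the circles of mutant replicate 1 are on top for cnc-11 and cnc-4 and at the bottom for cnc-3 and cnc-2.

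Other genes of the same pathways were read from lists of epidermal peptides, TGF-beta and stress regulators, galectins and genes of the response to intracellular pathogens. Of these, 28 were found, through the same lists of genes changed in mutants. Genes of the p38 MAPK pathway were also sought but not found, so that pathway could not be read here. Of the 28, 10 could be tested as listed for another mutant. None was called higher by edgeR (Cbr-zip-1 alone, 1 of 10, was higher with an unadjusted p under 0.05, and DESeq2 and limma-voom also called 0) and 2 were lower, which with 10 genes is near the 11.7% and 9.80% of all tested genes. Cbr-lec-10, a galectin, had 153, 218 and 228 CPM in the mutant, against 307, 352 and 312 CPM in wild type, and fell by 0.70 ± 0.18 in log2 units (adjusted p = 0.036 from edgeR). Cbr-pnp-1 is the counterpart of a purine nucleoside phosphorylase that holds down the intracellular pathogen response, pals genes included, in C. elegans. It had 95.8, 126 and 127 CPM in the mutant, against 200, 216 and 204 CPM in wild type, and fell by 0.83 ± 0.15 in log2 units (adjusted p = 0.0107 from edgeR). The genotypes did not overlap for either gene. The call of pnp-1 was lost under library totals (adjusted p = 0.0822 from edgeR). That of lec-10 was lost under library totals and upper-quartile scaling, with mutant replicates 2 and 3 summed (0.0693), and without mutant replicate 2 (0.0757), mutant replicate 3 (0.0578) or AF16 replicate 1, 2 or 3 (0.0866, 0.105 and 0.0906). The bZIP factor genes Cbr-zip-1, Cbr-zip-2 and Cbr-zip-10 had log2 fold changes of 0.31, 0.13 and 0.45 (adjusted p = 0.133, 0.705 and 0.33 from edgeR), and Cbr-sma-4, a SMAD of the TGF-beta pathway, had 0.18 (adjusted p = 0.284). Cbr-lec-8, Cbr-lec-6 and Cbr-dod-6 had log2 fold changes of -0.45, 0.25 and -0.20 (adjusted p = 0.15, 0.428 and 0.452 from edgeR).

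The other antimicrobial nlp genes, taken by name and not by position, did not all go the same way as Cbr-nlp-34.1. Cbr-nlp-26, the one that could be tested, had 127, 239 and 256 CPM in the mutant, against 227, 214 and 245 CPM in wild type (-0.14 ± 0.26, adjusted p = 0.745 from edgeR). Those listed for Cbr-ivph-3 only are values without a test. Over all tested genes 22.2% lay wholly above wild type and 20.1% wholly below. The genes that follow cannot be compared with these shares, since their listing used this contrast. Cbr-nlp-27, the gene next to Cbr-nlp-34.1, and Cbr-nlp-33, Cbr-nlp-34.2, Cbr-nlp-34.3 and Cbr-nlp-34.4 had every mutant library above wild type (log2 fold changes 0.82, 1.01, 1.77, 1.89 and 1.96). Cbr-nlp-24 was below in every mutant library, with 173, 177 and 176 CPM in the mutant, against 401, 353 and 457 CPM in wild type (-1.20). The signalling ligand gene Cbr-dbl-1 (-0.34), the epidermal GATA factor gene Cbr-elt-3 (-0.99) and the intestinal GATA factor gene Cbr-elt-2 (-0.62), all listed for Cbr-ivph-3, were also below in every mutant library, as were Cbr-rack-1, Cbr-kgb-1, Cbr-lec-1, Cbr-lec-2 and Cbr-lec-3 (-0.69, -0.44, -0.68, -0.66 and -0.77). Others so listed were above in every mutant library, namely Cbr-pqm-1 (0.81), Cbr-dod-24 (2.69) and Cbr-lec-5 (0.62).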

How the data were processed

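RNA from whole L3 hermaphrodites was sequenced as paired-end reads in 6 libraries, 3 of Cbr-ivph-3(sy5216) and 3 of AF16. Per the labels and the study's methods, the authors aligned the reads with RNA STAR to the WS279 genome and deposited raw counts per gene from featureCounts (read pairs, reverse-stranded setting). Versions are not given in the sources used here. The kit named does not mark strand, so reads of genes and overlapping antisense partners cannot be told apart, and near-identical paralogs are uncertain. The combined table and the 6 single tables hold the same counts.

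Counts were tested with edgeR 4.0.16 in R 4.3.3 (filterByExpr, TMM, robust glmQLFit, glmQLFTest; 14241 of 23169 genes), with genotype as the only term and Benjamini-Hochberg adjustment over all tested genes at 0.05. The standard error is the log2 fold change over the square root of F. Median log2 fold changes over all genes were 0.06 with TMM and 0.37 with library totals. The steps were also run on simulated counts with independent replicates. That run cannot give error rates for libraries as alike as mutant replicates 2 and 3. Alternatives were 3 other scalings, 2 other filters, DESeq2 1.42.0, limma-voom (limma 3.58.1), a replicate block, each library left out, and, added after the data were seen, mutant replicates 2 and 3 summed.

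Genes were named through the study's tables; 48 of 50 matched a RefSeq locus (assembly CB4, used for names and gene order only). The copies used end within the Cbr-ivph-3 list. Other members of these families could not be paired with the identifiers and were not analysed here. Members, lists and tests were chosen with earlier results of these data known. All members could be named. Values in every library are given for cnc, nlp, thn, lys and pals genes, for genes called, for the 2 of each other family with the largest fold change and a mean of at least 1 CPM, and for neighbours. Of other pathway genes, those called and up to 4 per list with the smallest p are given.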

Additional observations from a re-analysis of the deposited data

How the results depend on the processing

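Calls over all genes were 1667 higher and 1395 lower. Library totals gave 3297 and 646 (83.6% higher among calls, against 54.4%), and summing mutant replicates 2 and 3 gave 928 and 684. Leaving out 1 library gave 605 to 4497 higher and 625 to 4147 lower. The cause was not tested, except that fewer libraries enter these fits. For the 26 testable effector genes, summing gave 9 higher and 1 lower, upper-quartile scaling and library totals gave 1 lower, and leaving out 1 library gave 7 to 20 higher and 1 to 3 lower. No effector gene with a call changed sign. The related genes had 3 higher and 0 lower under library totals, 1 lower under upper-quartile scaling or summing, and 0 higher and 1 to 3 lower with 1 library left out. Cbr-ivph-3 lost its call under library totals (-0.41, adjusted p = 0.0577 from edgeR) and ran from -0.80 to -0.72 with 1 library left out.

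Deviations of same-numbered replicates had correlations of 0.191, 0.221 and -0.114. Differently numbered libraries were not compared in this way, so the values cannot decide whether the numbers pair the libraries. A replicate block gave 1236 higher and 1100 lower genes, and 14 higher and 2 lower effector genes, with the calls of Cbr-clec-80 and Cbr-clec-83 lost and that of Cbr-spp-18 gained. Genes under about 1 CPM rest on few counts, and differences in them were not detectable at this depth unless large.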
